A study of Rattus norvegicus with 102 samples.

Results

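The dentate gyrus (DG) of 12 aged rats that had not been impaired in the water maze was compared with that of 10 young rats. The libraries were chosen by their labels, which gave the subfield, the age group and the maze class, and 22 of the 102 libraries of the series met them. All were male Fisher 344 rats, an inbred strain, and the labels name no transgene or treatment. Young rats were 5 to 6 months old and aged unimpaired rats were 17 to 22 months old. The 12 DG libraries of aged impaired rats were set aside, apart from the values given for reference. Poly-A libraries were made from each hand-dissected piece and read by Illumina, and RNA of the same rats was read by Ion Proton, so both tables describe the same animals and the second bears on technical error.

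The dentate gyrus is the first station of the hippocampal circuit, and its granule cells receive cortical input and pass it to CA3. It is also one of few regions of the adult brain in which new neurons are born. Its resident immune cells are microglia, which are known to clear debris through Fc receptors, complement and lysosomes, and to present peptides on MHC class II when they are activated. Astrocytes, marked by the filament protein Gfap, surround its synapses and vessels.

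Values below are normalised reads, that is reads divided by a size factor per library by the authors. Changes are aged unimpaired minus young on the log2(value + 1) scale of the Illumina table, which understates the change of genes with few reads. A gene was called adjusted when the limma p-value, corrected over all genes by Benjamini-Hochberg, was under 0.05. It was called retested, after the thresholds of the study, when the unadjusted Illumina p-value was under 0.01 and the one-sided Ion Proton p-value was under 0.05 in the same direction. "Rose" and "fell" are used for genes that met either rule. Since a piece of tissue was measured, more cells of a type and more RNA per cell cannot be told apart.

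Illumina libraries of young rats held 5.70 to 41.2 M reads on genes and those of aged unimpaired rats 8.36 to 41.5 M reads. Summed levels of 20 granule cell genes ran from 6540.2 to 17936 in young and from 9592 to 19821 in aged unimpaired rats. A few libraries stood apart. The lowest granule cell sum in these groups belonged to young rat R9881, whose library also held 7557 normalised reads of choroid plexus genes, against 742 to 1944 in the other 9 young rats, and 240268 of mature oligodendrocyte genes, against 54237 to 128096. In its Ion Proton library the choroid plexus sum was 8035. By subfield markers it lay nearest CA3 in the Illumina and nearest DG in the Ion Proton table. The libraries of aged unimpaired rats R9865 and R9869 lay nearer to CA1 than to DG by marker genes in both poly-A tables. In the Ion Proton table alone, young rat R9876 lay nearest CA1 and young rat R2176 had a choroid plexus sum of 3448, against 742 in its Illumina library. Counts are therefore also given without R9881 and without R9865 and R9869.

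Of 13999 genes tested, 7 passed the adjusted threshold, and all of them rose (0.05% of genes). They were Cdh1, Cyp2a3, LOC688090, C4a, AABR06094655.2, Fcgr2b and Gfap. With the number series of the rats as a covariate, the series being rat numbers below 9000 and from 9000 up, 26 genes passed, and with DESeq2 28 did. The covariate kept all 7 and added, besides class II genes, C3 (adjusted limma p = 0.00904), Gpnmb (0.00641), Cd4 (0.0149), C4b (0.0232), Adrb1 (0.0321), Emr1 (0.0325) and Trem2 (0.0364), among others. A total of 87 genes were retested (0.621%), of which 72 rose (0.514%) and 15 fell (0.107%). These came from 167 genes with an unadjusted p-value under 0.01 (1.19%), of which 129 were higher (0.921%) and 38 lower (0.271%), close to the 140.0 that this threshold gives by chance over 13999 tests, and 588 genes (4.2%) had an unadjusted p-value under 0.05. The median log2 change over all genes was 0.002. The Ion Proton table alone gave 2 adjusted genes of 15035 (0.0133%) and 952 with an unadjusted p-value under 0.05 (6.33%), and the WT table gave 1 of 13517 (0.0074%) and 549 (4.06%). Without young rat R9881 there were 11 adjusted and 130 retested genes, of which 113 rose, and without the libraries of rats R9865 and R9869 there were 2 adjusted genes, Cdh1 and Fcgr2b, and 72 retested genes. Of the 72 genes that rose 14 lost the retested call without those aged rats, among them Gpr183, Ifit3, Csf2rb, Lilrb3, Wdfy4, Pld4 and Ctsd, and of the 15 that fell 10 did. Without the 5 deeply sequenced rats (over 25 M reads in every Illumina library of the rat) 27 of the 72 and 5 of the 15 lost it, and 55 of the 87 genes were still retested.

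**Figure D1:**
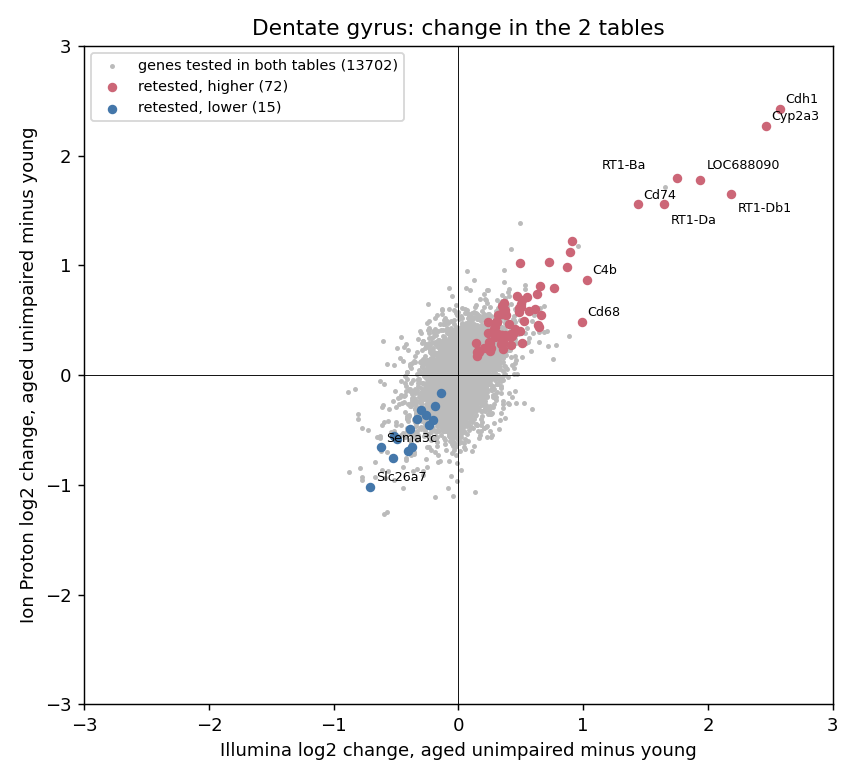
Log2 change between aged unimpaired (n = 12) and young (n = 10) dentate gyrus in the Illumina table (x axis) and in the Ion Proton table (y axis). Each point is 1 of 13702 genes tested in both tables, with retested genes in red (72 higher) and blue (15 lower). Cdh1, Cyp2a3 and the MHC class II genes lie at the upper right, while the gene that fell most, Slc26a7, lies at -0.71 and -1.02. The retest itself required the same direction in both tables.

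The MHC class II genes had the largest median change of the 38 gene lists. They encode the cell surface proteins that present peptides to CD4 T cells, and Cd74, the invariant chain that escorts them to the endosome. All 5 members that were tested rose (0.514% of all genes), namely RT1-Db1, LOC688090, RT1-Ba, RT1-Da and Cd74. Their median log2 change was 1.75, against 0.002 over all genes. The 5 other members in the tables had means below 10 normalised reads and were not tested, and of these RT1-DMa and RT1-DMb were listed at 0 in every library of both groups. Genes of this family are similar in sequence, so reads could have been divided between them.

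Promoters of class II genes are known to share the Y box, a motif with a reversed CCAAT core bound by NF-Y. The letters CTGATTGG were searched on both strands in the 250 bases before the start of each gene in RefSeq (build GRCr8). They were present for RT1-Db1, RT1-Da and RT1-Ba, and in 3.19% of all 33469 promoters. The last 120 bases before each start are shown in gene direction because these genes had the largest shared change, with the searched letters in capitals.
RT1-Db1: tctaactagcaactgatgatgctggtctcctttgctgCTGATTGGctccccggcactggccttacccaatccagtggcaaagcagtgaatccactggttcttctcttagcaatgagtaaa
RT1-Da: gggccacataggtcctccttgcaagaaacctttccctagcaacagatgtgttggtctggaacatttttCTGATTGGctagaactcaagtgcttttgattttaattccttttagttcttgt
RT1-Ba: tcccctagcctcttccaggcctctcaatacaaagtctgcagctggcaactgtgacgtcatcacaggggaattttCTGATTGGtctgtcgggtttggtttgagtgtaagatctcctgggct
They lie at chr20:4560163-4560282 on the minus strand, at chr20:4515295-4515414 on the plus strand and at chr20:4576937-4577056 on the plus strand. The first letter of the motif stood 83, 52 and 46 bases before the start. The letters were not in the window of Cd74. Among all retested genes that rose, 55 had a promoter in the table and 5 of these held the letters (9.09%), the other two being Cd68 and RT1-CE16. Of the 6 promoters of genes that fell, 1 held them (16.7%, Dmrta2). A match of letters is a description of the sequence and not a sign of binding.

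RT1-Db1, a class II beta chain, ran from 4.58 to 25.7 normalised reads in young rats with a median of 7.36, and from 12.3 to 204 in aged unimpaired rats with a median of 37.6. Its log2 change was 2.18 (SE 0.43, adjusted limma p = 0.0559), with 1.65 in the Ion Proton table. In 8 of 12 aged rats the level lay above every young rat, and the spread among aged rats was far wider than among young ones. LOC688090, named for its locus and placed in the class II list, had a young median of 9.92 and a range of 3.15 to 22.0, against a median of 30.6 and a range of 17.2 to 141 in aged unimpaired rats. With all 22 libraries and no covariate it was the only class II gene to pass the adjusted threshold, with a log2 change of 1.94 (SE 0.35, adjusted limma p = 0.0311). This call was lost in 11 of the 22 fits that left out 1 library.

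RT1-Ba, an alpha chain, had a median of 12.2 in young rats (range 6.30 to 37.4) and of 41.3 in aged unimpaired rats (range 15.2 to 168), a log2 change of 1.75. RT1-Da, the alpha chain of the other class II molecule, went from a median of 13.7 (range 4.58 to 45.0) to one of 41.6 (range 12.3 to 215), a log2 change of 1.64. Cd74 ran from 39.5 to 199 in young rats and from 115 to 888 in aged unimpaired rats, with medians of 90.4 and 186 and a log2 change of 1.44. For each of these genes the groups overlapped, and the adjusted p-values by limma were 0.139, 0.286 and 0.152. The highest young values belonged to rats R9780 and R9881, and the highest aged value of Cd74 to rat R9867.

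Changes were also taken within each number series of the rats. All 87 retested genes had the same direction in both series. They were chosen on these same rats, so this is no separate evidence. The labels number rats either below 9000 or from 9000 up, and each series held 5 young rats and 6 aged unimpaired rats. Log2 changes were 1.83 and 2.54 for RT1-Db1, 1.78 and 2.09 for LOC688090, and 1.39 and 1.48 for Cd74. With the number series as a covariate all 5 class II genes passed the adjusted threshold by limma, with adjusted p = 0.00576 for RT1-Db1, 0.00308 for LOC688090, 0.0149 for RT1-Ba, 0.0232 for RT1-Da and 0.00655 for Cd74. All 5 also passed with DESeq2, where RT1-Da had the largest adjusted p (0.0492), and none passed with edgeR, where LOC688090 had the smallest (0.0592). The WT table, whose library type is not given in the sources used here, gave 1.56 for RT1-Db1, 1.58 for RT1-Ba, 1.53 for RT1-Da and 1.57 for Cd74.

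**Figure D2:**
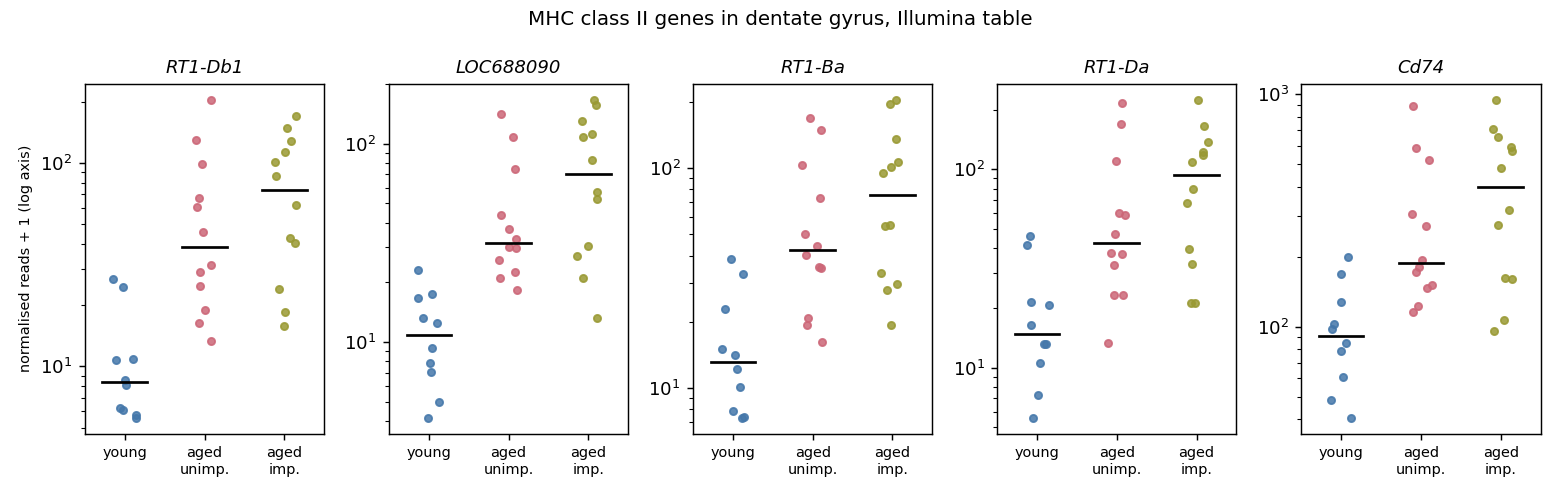
Normalised reads plus 1 (log axis) of the MHC class II genes in the dentate gyrus, with 1 point per rat and a bar at the median, for young (n = 10), aged unimpaired (n = 12) and aged impaired rats (n = 12). Medians of aged unimpaired rats lie above those of young rats in each panel.

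Summed over the list, class II genes had 67.0 to 314 normalised reads in young rats (median 147) and 190.3 to 1636 in aged unimpaired rats (median 347). These sums were set beside those of the other subfields. Across the 12 aged unimpaired rats the log2 sum in DG was related to that in CA1 with r = 0.617 (permutation p = 0.0366, rho = 0.517, permutation p = 0.089) and to that in CA3 with r = -0.358 (permutation p = 0.251, rho = -0.343, permutation p = 0.277). After Benjamini-Hochberg adjustment over the 4 values, none passed 0.05, with permutation p = 0.146 and 0.178 for CA1. Leaving out the 2 rats farthest from the median in DG gave r = 0.582 and -0.363, whereas within the number series (6 rats each) r was -0.164 and -0.031 for CA1 and 0.427 and -0.291 for CA3, so the relation with CA1 did not hold within either series. Some of these pieces lay nearer another subfield by marker genes in both poly-A tables, namely DG of R9865 and R9869, CA1 of R9869 and CA3 of R9860 and R9865. Without such rats, an alternative chosen after seeing the data, r was 0.821 for CA1 (n = 10, rho = 0.648) and -0.303 for CA3 (n = 9, rho = -0.3).

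Markers of cells that can carry class II were examined beside these values. Of the 20 markers of homeostatic microglia, all were tested, 4 rose (0.514% of all genes) and 12 had an unadjusted p-value under 0.05 with a higher level (2.6% of all genes), while none was lower at that threshold. Their median log2 change was 0.19, and their sum went from 5011 to 7418 in young and from 5639 to 7914 in aged unimpaired rats. Of 23 lymphocyte markers in the tables, only 4 had enough reads to be tested and none was retested. Of these 3 had a log2 change above 0 and 1 had an unadjusted p-value under 0.05, with a median of 0.25 in the Illumina and 0.36 in the Ion Proton table. The lymphocyte sum was 59.5 to 142 in young and 74.7 to 225 in aged unimpaired rats, and 11 markers, among them Cd2, Cd3d, Cd8b, Cd79b, Ms4a1, Gzma and Nkg7, had 3 or fewer reads in every library, with Cd5 and Cd79a at 0. Cd3e, a chain of the T cell receptor complex, had medians of 5.85 and 7.88 with ranges up to 84.0 and 116. The part of these cells in the class II values was not tested.

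Cdh1, which encodes the adhesion protein E-cadherin, had the largest change of the retested genes by limma, while RT1-Db1 ranked above it by DESeq2 and edgeR. Young rats ran from 0 to 25.2 normalised reads with a median of 4.33, and aged unimpaired rats from 16.6 to 43.2 with a median of 32.8. In 11 of 12 aged rats Cdh1 exceeded every young rat, the highest of which was rat R9780. Cdh1 had 3 or fewer reads in 3 of 10 young libraries, so the size of its change rests partly on values near 0. Its young mean lay below the mean of 10 needed for testing, which Cdh1 reached only through the aged group. The log2 change was 2.58 (SE 0.36, adjusted limma p = 0.00261), with 2.43 in the Ion Proton and 2.27 in the WT table. It was 2.54 and 2.61 within the number series, which hold the same rats as the call. No single library removed the adjusted call.

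Cyp2a3 encodes a cytochrome P450 of a family with similar copies, so its reads are uncertain. It had a median of 3.22 in young rats (range 0 to 30.2) and of 31.1 in aged unimpaired rats (range 8.67 to 53.8), and 6 of 12 aged rats lay above all young ones. In 5 of 10 young libraries it had 3 or fewer reads, so the size of its change rests partly on values near 0. Its means were 7.39 in young and 29.5 in aged unimpaired rats. It reached the mean of 10 needed for testing only through the aged group. Its log2 change was 2.46 (SE 0.47, adjusted limma p = 0.0447), and 17 of 22 fits without 1 library put the adjusted p-value above the threshold. Values within the series were 2.33 and 2.60.

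Fcgr2b, the inhibitory Fc receptor of macrophages and B cells, also rose. Its young values ran from 52.7 to 99.3 (median 65.5) and its aged values from 89.7 to 129 (median 110.3), and 10 of 12 aged rats lay above the highest young rat, R9881. The log2 change was 0.65 (SE 0.0975, adjusted limma p = 0.00519), with 0.79 and 0.51 within the series. AABR06094655.2 is annotated as a pseudogene on chromosome 18 and is named for a contig. It went from a median of 51.8 (range 38.9 to 80.8) to 82.0 (range 62.5 to 110.0), a log2 change of 0.65 (SE 0.12, adjusted limma p = 0.0277), a call lost in 8 of the 22 fits without 1 library.

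Gfap was the one astrocyte gene that rose. It ran from 10591 to 14672 normalised reads in young rats and from 13274 to 19639.8 in aged unimpaired rats, with 9 of 12 aged rats above the highest young rat. The log2 change was 0.40 (SE 0.0698, adjusted limma p = 0.0220), with 0.47 in the Ion Proton and 0.32 in the WT table. This call was lost in 5 of the 22 fits without 1 library, and limma gave adjusted p = 0.0543 without R9865 and R9869 and 0.0796 without deeply sequenced rats. The 19 other tested astrocyte markers gave no retested gene, and the median of the list was 0.0435. Slc14a1, a urea transporter of astrocytes, had a log2 change of 0.22 (unadjusted limma p = 0.000248) in the Illumina and 0.10 in the Ion Proton table.

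**Figure D3:**
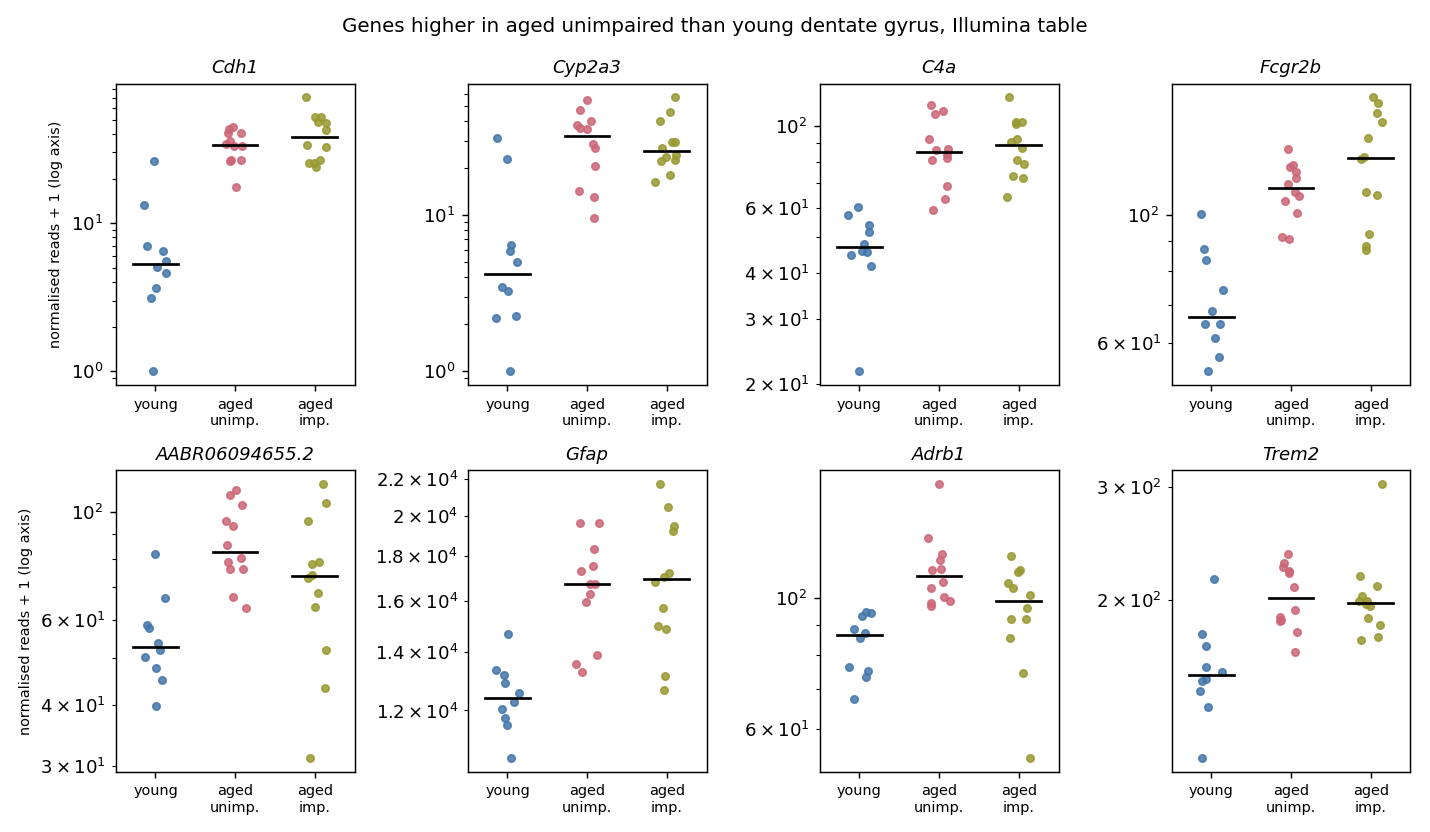
Normalised reads plus 1 (log axis) of 8 genes in the dentate gyrus, with 1 point per rat and a bar at the median, for young (n = 10), aged unimpaired (n = 12) and aged impaired rats (n = 12). For Adrb1 the lowest aged unimpaired rat lies above the highest young rat, and for Cdh1 and C4a 11 of 12 do so.

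The complement genes, whose products tag particles and synapses for removal, gave 7 genes that rose of 18 tested (0.514% of all genes). None fell, and the median log2 change was 0.24. The copies C4a and C4b are nearly identical and can share reads. C4a went from 20.6 to 59.1 normalised reads in young rats to 58.3 to 113 in aged unimpaired rats, and only 1 aged rat lay within the young range. Its log2 change was 0.89 (SE 0.15, adjusted limma p = 0.0126), and no single library removed this call. Without both aged rats R9865 and R9869 the log2 change was 0.82 and the adjusted p = 0.0543 by limma, and without deeply sequenced rats the adjusted p = 0.0842. C4b had medians of 27.7 and 52.6 and a log2 change of 1.03, with 1.5 in rats numbered below 9000 and 0.56 in the others.

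C3, the protein on which the complement pathways converge, ran from 249 to 1010.1 in young rats (median 586) and from 554 to 1179 in aged unimpaired rats (median 866). Only 3 of 12 aged rats exceeded the highest young rat, R9881, and the log2 change was 0.77 (SE 0.22, unadjusted limma p = 0.00166). The 3 chains of C1q, which start the classical pathway, changed by similar amounts, 0.30 for C1qa, 0.24 for C1qb and 0.24 for C1qc. C1r, the protease that acts with C1q, changed by 0.35, from a median of 249 to 313, and 10 of 12 aged rats lay above every young rat. Without deeply sequenced rats C3 had 0.59 (unadjusted limma p = 0.0188) and C1qc 0.22 (unadjusted limma p = 0.0109), and both lost the retested call.

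Fc receptors and their signalling proteins gave 6 retested genes of 21 tested, all higher (0.514% of all genes), and 12 of the 21 had an unadjusted p-value under 0.05 in that direction (2.6% of all genes). The median log2 change was 0.30. Beside Fcgr2b these were Fcer1g (0.37), the signalling chain of activating Fc receptors, Plcg2 (0.43), a phospholipase, Itgb2 (0.35), the beta chain of leukocyte integrins, Cyba (0.38), a subunit of the phagocyte oxidase, and Wdfy4 (0.41), needed in dendritic cells for cross-presentation. Fcer1g ran from 117 to 234 in young and from 158 to 271 in aged unimpaired rats, so the groups overlapped widely. Without deeply sequenced rats Plcg2 alone of the 6 was still retested, while Fcgr2b kept its size (0.65, unadjusted limma p = 2.6e-05) and missed the Ion Proton threshold.

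Among genes of activated microglia, 5 of 18 rose (0.514% of all genes) and the median was 0.18. Trem2, the lipid receptor of microglia, ran from 112 to 215 in young rats and from 165 to 235 in aged unimpaired rats, and its log2 change was 0.38 (SE 0.0861, unadjusted limma p = 0.000166). All 12 aged rats lay above the young median. Cd68, a protein of phagocyte lysosomes, had medians of 11.2 and 23.3 and a log2 change of 0.99, with 0.49 in the Ion Proton table. Gpnmb, a glycoprotein of phagocytes that handle lipid, changed by 0.49, Cd33, a sialic acid receptor, by 0.35, and Lgals3bp, a galectin ligand, by 0.34. For Gpnmb the young value of rat R9881 stood apart at 199.8 against a young median of 113.

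The retested markers of homeostatic microglia were Gpr183 (0.72), a receptor for oxysterols, Cd4 (0.63), which rat macrophages and microglia carry, Gpr84 (0.49), a receptor for medium-chain fatty acids, and Laptm5 (0.32), a lysosomal membrane protein of blood-derived cells. Without aged rats R9865 and R9869 Gpr183 had 0.63 (unadjusted limma p = 0.0236). Without deeply sequenced rats Gpr183 (0.61, unadjusted limma p = 0.0441) and Laptm5 (0.29, unadjusted limma p = 0.0150) lost the retested call. Cd4 ran from 49.4 to 157 in young and from 115 to 207 in aged unimpaired rats. The lineage markers Csf1r, the receptor for colony stimulating factor, and Cx3cr1, the fractalkine receptor, did not meet the retest. Csf1r had a log2 change of 0.19 (unadjusted limma p = 0.0121) and Cx3cr1 one of 0.25 (unadjusted limma p = 0.000459), with 0.27 and 0.16 in the Ion Proton table.

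Of 27 lysosomal genes 5 rose (0.514% of all genes), and the list median was 0.0830, against 0.002 over all genes. The cathepsin Ctsz changed most (0.49), with 0.61 in the Ion Proton table. Npc2, which carries cholesterol out of the lysosome, changed by 0.30, the nuclease Pld4 by 0.28, the protease Ctsd by 0.15 and Grn, or progranulin, by 0.14. Without deeply sequenced rats Pld4 (0.20, unadjusted limma p = 0.0781), Ctsd (0.15, unadjusted limma p = 0.0190) and Grn (0.11, unadjusted limma p = 0.0364) lost the retested call. Ctss, the cathepsin that trims the invariant chain, had a log2 change of 0.30 (unadjusted limma p = 0.00251) but 0.22 in the Ion Proton table, where it missed the threshold.

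Genes induced by interferon gave 1 retested member, which rose (0.514% of all genes). All 26 tested genes had a log2 change above 0, where 51.1% of all genes did, 11 had an unadjusted p-value under 0.05 (2.6% of all genes), and the median was 0.32. Ifit3, an RNA-binding antiviral protein, was the one retested member. It ran from 12.9 to 26.5 in young rats (median 20.7) and from 16.3 to 61.6 in aged unimpaired rats (median 34.2), a log2 change of 0.61, and without rats R9865 and R9869 it was 0.56 with an unadjusted limma p = 0.0110, just past the 0.01 threshold. Aged rat R1930 stood apart with an interferon gene sum of 7303, against a median of 4789 in aged unimpaired rats and a highest young sum of 4764. This rat was also the highest for Ifit3 and Tap1, and without it Ifit3 had 0.53 (unadjusted limma p = 0.0102) and lost its call. Ifi27 had a log2 change of 0.19 (unadjusted limma p = 0.0110) and the GTPase Gbp5 one of 0.51 (unadjusted limma p = 0.00143), of which the Ion Proton table gave 0.42 and 0.16.

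The element through which interferons act contains repeated GAAA. The letters GAAA, any 2 bases and GAAA again were searched on both strands and found in 3.41% of all promoters and in 5 of the 55 of retested genes that rose (9.09%), namely Grn, Ifit3, Lgals3bp, Slamf8 and Tap1. The promoter of Ifit3 is shown because it was the retested gene of this list, with the letters in capitals on the opposite strand.
Ifit3: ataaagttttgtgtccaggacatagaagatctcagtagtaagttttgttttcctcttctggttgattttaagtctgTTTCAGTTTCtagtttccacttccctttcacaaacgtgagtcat
It lies at chr1:241527206-241527325 (GRCr8, plus strand), with the first capital 44 bases before the start.

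Peptide loading onto MHC class I was represented by Psmb9, a proteasome subunit induced by interferon, and Tap1, the peptide transporter. Of 18 tested genes these 2 rose (0.514% of all genes) and 7 had an unadjusted p-value under 0.05, all higher (2.6% of all genes). Tap1 went from a median of 76.0 (range 51.2 to 95.6) to 96.2 (range 73.7 to 138), a log2 change of 0.47 with 0.72 in the Ion Proton table, but -0.00206 in the WT table. Psmb9 changed by 0.50, and without deeply sequenced rats it had 0.41 (unadjusted limma p = 0.0297) and lost the retested call. B2m, the shared light chain of class I, had a log2 change of 0.17 (unadjusted limma p = 0.0325) and only 0.0457 in the Ion Proton table.

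**Figure D4:**
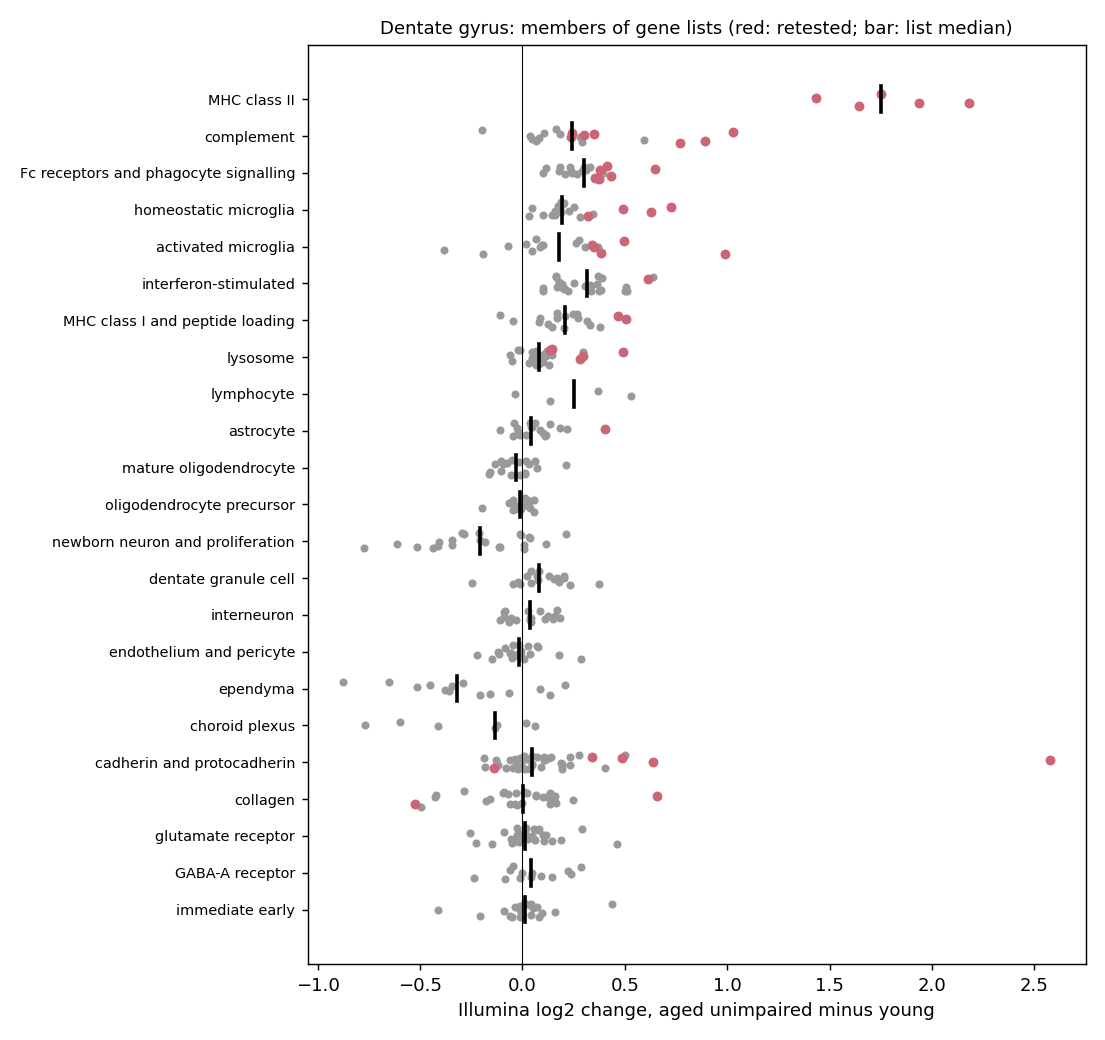
Log2 change between aged unimpaired (n = 12) and young (n = 10) dentate gyrus for members of 23 gene lists in the Illumina table. Each point is a tested gene, red points are retested genes, and the black bar is the list median. The 5 MHC class II genes lie between 1.44 and 2.18, and the medians of the glutamate and GABA-A receptor lists lie at 0.0141 and 0.0422.

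Of 41 tested cadherins and protocadherins 4 rose, Cdh1 among them (0.514% of all genes), and 1 fell (0.107%), with a list median of 0.0480. Pcdhb4 (0.64, from a median of 64.4 to 97.4) and Pcdhb5 (0.34) belong to the clustered protocadherins, which give neurons a surface identity and whose similar exons can share reads. Pcdhb14 (0.43) and Pcdhga6 (0.29) of the same clusters, which are not in the list and are named after their values were seen, also rose. Pcdhb5 lost the retested call without deeply sequenced rats (0.35, unadjusted limma p = 0.0156) and without R9881 (0.28, unadjusted limma p = 0.0117). Cdh23 (0.48), known from the tip links of hair cells, ran from 74.0 to 153 in young and from 119 to 161 in aged unimpaired rats, with young rat R9881 the highest young value. Cdh11, a cadherin of mesenchymal and neuronal cells, fell by a small amount (-0.14), and the WT table gave 0.0849.

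Further genes with large changes belonged to none of these groups. Bpifb4, a lipid-binding secreted protein, had medians of 10.0 and 21.6 and a log2 change of 0.91. Gipr, the receptor for the gut hormone GIP, ran from 48.1 to 137 in young and from 81.3 to 304 in aged unimpaired rats, a log2 change of 0.87 (SE 0.21), with 0.99 in the Ion Proton table. Col18a1, a collagen of vessel basement membranes, changed by 0.66, and was 1 of 2 retested genes of 30 tested collagens (0.621% of all genes), with aged values from 202 to 972 that included the lowest of all 22 libraries. All 3 had overlapping groups, and Col18a1 lost the retested call without deeply sequenced rats (0.61, unadjusted limma p = 0.0217).

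A total of 42 retested genes belonged to no list, and those named here were chosen after their values were seen. Several are known from macrophages. Emr1, the rat gene of the F4/80 antigen, ran from 105 to 163 in young and from 158 to 218 in aged unimpaired rats, a log2 change of 0.36 (SE 0.0771), and 10 of 12 aged rats lay above every young rat. Mpeg1, a pore-forming protein of phagocytes, changed by 0.42, the cytokine receptor chain Csf2rb by 0.52, and the inhibitory receptor Lilrb3, which has a near copy in Lilrb3l, by 0.55. Stat3, a transcription factor of cytokine signalling, had a small change of 0.15 (SE 0.0408), with all 12 aged rats above the young median. Mpeg1 lost the retested call without deeply sequenced rats (0.43, unadjusted limma p = 0.00784 in the Illumina table).

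Adrb1, the beta-1 adrenergic receptor, was the only gene of 13999 in which all aged unimpaired rats lay above all young rats (0.00714% of genes), and it is named here after its values were seen. It ran from 66.4 to 93.5 in young rats and from 95.7 to 155 in aged unimpaired rats, with a log2 change of 0.42 (SE 0.0827, adjusted limma p = 0.0563). The Ion Proton table gave 0.38, with groups that overlapped, and the WT table gave -0.15. No gene had all aged unimpaired rats below all young rats.

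The log2 changes of the 15 genes that fell ran from -0.71 for Slc26a7 to -0.14 for Cdh11. None passed the adjusted threshold. Slc26a7, an anion exchanger, ran from 6.13 to 29.8 normalised reads in young rats (median 20.7) and from 6.57 to 17.3 in aged unimpaired rats (median 10.4), and all 12 aged rats lay below the young median. Its change was -1.16 in rats numbered below 9000 and -0.25 in the others.

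Sema3c, a secreted semaphorin that guides growing axons, ran from 555 to 989.5 in young rats and from 208 to 657 in aged unimpaired rats. Its log2 change was -0.62 (SE 0.17, unadjusted limma p = 0.00139), with -0.66 in the Ion Proton and -0.41 in the WT table, and it was the only retested gene of 61 axon guidance genes (0.621% of all genes). Col11a1, a chain of fibrillar collagen, went from a median of 385 (range 304 to 513) to 268 (range 143 to 418), a log2 change of -0.52 that was -0.25 and -0.80 within the number series.

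Dmrta2, a transcription factor of the embryonic dorsal telencephalon, went from a median of 28.4 to 20.9, a log2 change of -0.49. Further genes that fell were Mgat4c (-0.40), a glycosyltransferase, Stc1 (-0.38), the hormone stanniocalcin, Fstl5 (-0.38), a follistatin-like protein, and Acsm3 (-0.33), an acyl-CoA synthetase. Smaller decreases were measured for Dynlt1 (-0.30), a dynein light chain, Ralyl (-0.24), an RNA-binding protein, Ggh (-0.20), a folate hydrolase, and Cep85l (-0.19), a centrosomal protein. LOC100910572 (-0.52) and LOC100361838 (-0.26) have no descriptive name. For Ralyl all 12 aged rats lay below the young median of 567, with a range of 396 to 550.0 against 515 to 624. In the WT table Ralyl (0.0127), Ggh (0.0238) and LOC100361838 (0.0006) were not lower. The highest young values of Dynlt1, Acsm3, Fstl5 and Ralyl belonged to rat R9881, and without its library Dynlt1 (-0.24), Acsm3 (-0.28), Ggh (-0.20) and Cdh11 (-0.13) were no longer retested. Without aged rats R9865 and R9869 only 5 of the 15 genes were still retested, namely Sema3c, Col11a1, Dmrta2, Ralyl and Ggh, while Slc26a7 kept its size (-0.72, unadjusted limma p = 0.0120) but missed the threshold. Cdh11 (-0.15) and Cep85l (-0.21) also kept theirs. All other genes that lost the call had smaller changes than with all libraries.

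**Figure D5:**
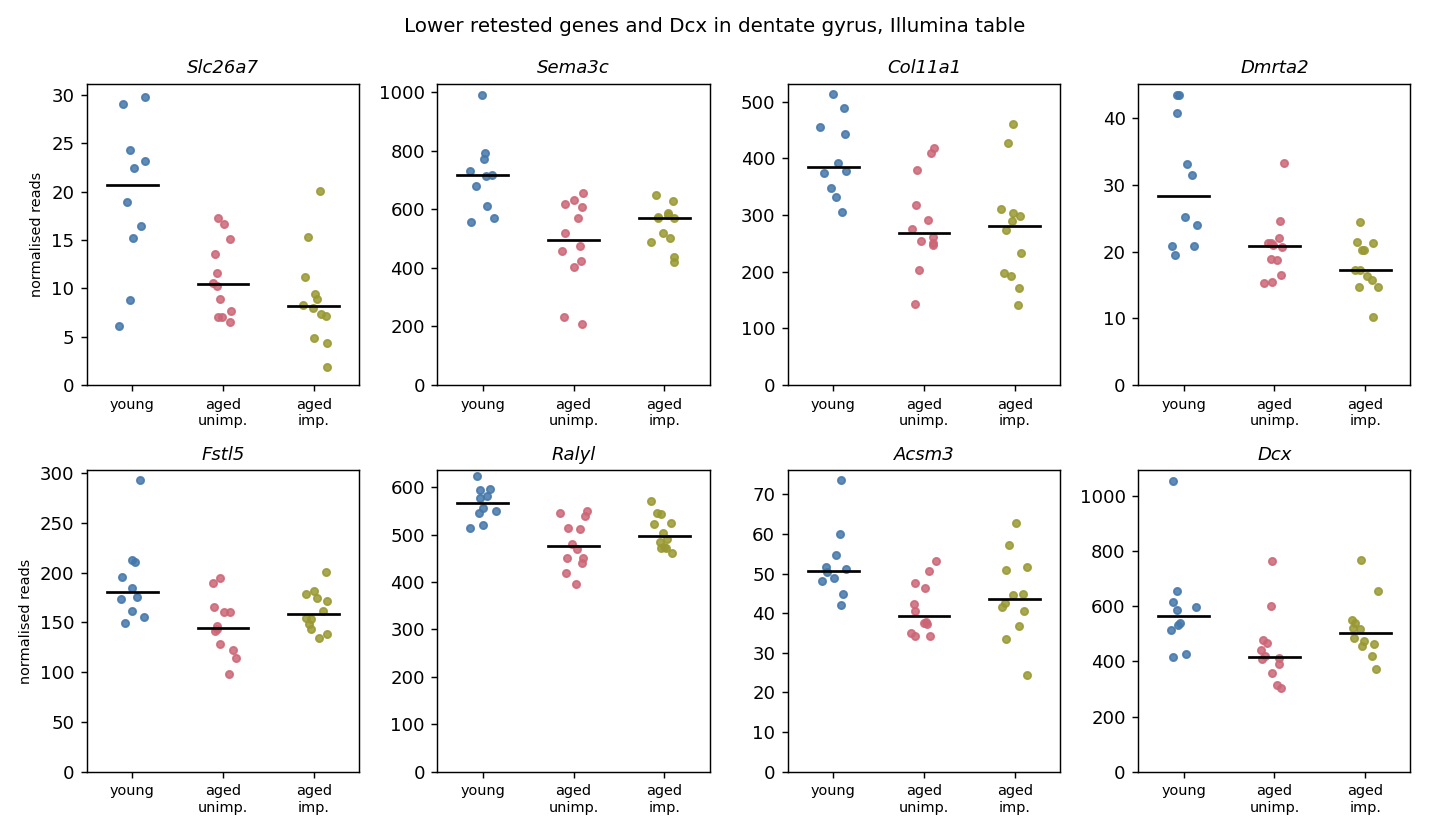
Normalised reads (linear axis from 0) of 7 retested genes that fell and of Dcx in the dentate gyrus, with 1 point per rat and a bar at the median, for young (n = 10), aged unimpaired (n = 12) and aged impaired rats (n = 12). Medians of aged unimpaired rats lie below those of young rats in each panel, the groups overlap, and 1 young rat stands apart for Fstl5 and Dcx.

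Genes of newborn neurons and dividing cells were mostly lower, but none was retested. Of 23 tested genes 17 had a log2 change below 0, where 51.1% of all genes had one above 0. Of the 23, 6 had an unadjusted p-value under 0.05, all lower (1.6% of all genes). The list median was -0.21 in the Illumina and -0.0849 in the Ion Proton table. Young rat R9881 had the highest young sum of this list (13876), and below only Dcx is given without it. Dcx, the microtubule protein of migrating young neurons, was named after its values were seen. It ran from 417 to 1056 in young rats (median 564) and from 302 to 763 in aged unimpaired rats (median 416), with a log2 change of -0.41 (SE 0.15, unadjusted limma p = 0.0103) that lay just outside the 0.01 threshold, and -0.51 in the Ion Proton table. The highest young value was that of rat R9881, and without it the log2 change was -0.31. The members with the highest means were Tubb3 (-0.00788), Stmn1 (0.00550), Tubb2b (-0.21, unadjusted limma p = 0.0255) and Ccnd2 (-0.18), the first 3 of which bind or form microtubules while Ccnd2 is a cyclin.

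Lists of mature neurons, other glia and vessels gave no retested gene, where 0.621% of all genes were retested, a share that gives less than 1 gene in lists of this size. There were 0 of 18 for granule cells, 0 of 8 for CA1 pyramidal cells, 0 of 12 for CA2 and CA3 pyramidal cells, 0 of 19 for interneurons, 0 of 18 for mature oligodendrocytes, 0 of 15 for their precursors and 0 of 22 for endothelium and pericytes by limma, and of these lists none had a gene with an unadjusted p-value under 0.05. C1ql2, a synaptic organiser of granule cells, had a log2 change of 0.23 and the calcium buffer Calb1 one of -0.0486. Likewise 0 of 30 glutamate receptor genes and 0 of 13 GABA-A receptor genes were retested, with medians of 0.0141 and 0.0422, and 0 and 1 gene with an unadjusted p-value under 0.05. The same held for 0 of 20 immediate early genes, 0 of 29 potassium and HCN channel genes, 0 of 39 Wnt pathway genes, 0 of 21 matrix proteoglycans, 0 of 13 neurotrophin genes, 0 of 19 glucocorticoid targets, 0 of 19 cholesterol synthesis genes, 0 of 18 heat shock genes and 0 of 15 cytokine and senescence genes, of which at most 2 genes in a list had an unadjusted p-value under 0.05.

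Markers of tissue that borders the DG were uneven between libraries. Ttr, a carrier protein made by the choroid plexus, ran from 1.60 to 3439.9 in young and from 2.66 to 503 in aged unimpaired rats, and Enpp2 from 552 to 3153 and from 602 to 1419. The log2 change of Ttr was -0.60 (unadjusted limma p = 0.603) with all libraries and -0.0001 without young rat R9881. None of the 1 pituitary, 7 choroid plexus, 14 ependyma, 14 leptomeninges or 7 blood genes tested was retested, and the medians of the last 4 lists were -0.14, -0.32, -0.0545 and 0.30, against -0.47, -0.27, -0.0663 and 0.52 in the Ion Proton table. All 7 blood genes had a log2 change above 0. Blood genes summed to 697 to 2429 in young and 810.5 to 3099 in aged unimpaired rats. Their part in the retested genes was not tested.

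The study named 25 genes as shared by the subfields in age, which it chose from these same rats, so their counts are no independent evidence. In DG 17 of them rose by the retest (0.514% of all genes) and none fell. At an unadjusted p-value under 0.05, 23 were higher (2.6% of all genes). Among those that missed the retest were Ncf1 (0.29), a subunit of the oxidase, Nckap1l (0.26), an actin regulator of blood cells, Ctss, Cx3cr1, Slc14a1, Csf1r and Col4a5 (-0.43). The last is a basement membrane collagen, and it was the only one of the 25 with a lower level in aged unimpaired rats (unadjusted limma p = 0.0245).

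Whether the age effect of DG differed from that of the other subfields was tested as an interaction over 66 libraries of the same rats. Among these, CA1 of R9869 and CA3 of R9865 lay nearest DG, and CA3 of R9860 and of R9879 lay nearest CA1, in both poly-A tables. By limma no gene differed from CA1 or from CA3 after adjustment over 14161 genes (0%), with 122 and 146 genes at an unadjusted p-value under 0.05 (0.862% and 1.03%). Both shares lie below the share of 0.05 that this threshold gives by chance. The absence of adjusted genes therefore does not show that the subfields changed alike. Pairing the subfields of a rat by a block gave 0 and 0 adjusted genes, with 198 and 235 at that unadjusted threshold. edgeR gave 0 and 0, and DESeq2 gave 3 and 0. Without the libraries nearer another subfield limma gave 0 and 0, with 115 and 224 at the unadjusted threshold. The 3 genes were Kl, Cldn2 and Ttr, each with known expression in the choroid plexus, and limma gave them unadjusted p-values of 0.288, 0.407 and 0.300.

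Of the 72 genes that rose in DG, 47 were also higher in CA1 with an unadjusted p-value under 0.01, where 1.33% of all genes were, and 28 of 72 were so in CA3, where 0.548% were. The libraries are others but the rats are the same. Cdh1 changed by 1.56 in CA1 and 1.52 in CA3, RT1-Db1 by 2.04 and 2.27, Cd74 by 1.78 and 1.85, and Gfap by 0.53 and 0.39. Of the 15 genes that fell, 2 of the 14 tested in CA1 and 1 of 15 in CA3 were lower at that threshold, where 0.24% and 0.14% of all genes were.

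Retested genes with the smallest unadjusted interaction p-values are given by that order, and none of these values survived adjustment. For CA1 these were Adrb1, with -0.17 in CA1 (limma interaction p = 0.0137), and Cyp2a3, with 0.87 (limma interaction p = 0.0188). For CA3, Tap1 had 0.0154 in CA3 (limma interaction p = 0.0102), Csf2rb -0.0213 (limma interaction p = 0.0118), Cd68 0.26 (limma interaction p = 0.0125), Pcdhb4 0.26 (limma interaction p = 0.0261) and Sema3c 0.28 (limma interaction p = 0.0269). In all, 3 of 87 genes for CA1 and 8 of 87 for CA3 had an unadjusted interaction p-value under 0.05. Over all genes the shares were 0.862% and 1.03%. These 87 were chosen by their change in DG, which is part of the interaction, so the counts are no independent evidence. Both order and counts come from the fit without the rat block. In the block fit Pcdhb14 also lay under 0.05 (limma interaction p = 0.0104 for CA1 and 0.0108 for CA3). For CA1, Cyp2a3 (limma interaction p = 0.00983) then ranked before Adrb1 (0.0227).

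Aged impaired rats gave no gene that differed from aged unimpaired rats in DG after adjustment over 14019 genes by limma, edgeR or DESeq2 (0%), and limma gave 505 genes at an unadjusted p-value under 0.05 (3.6%). The comparisons of both aged groups with young rats share the young libraries. Side by side, the change against young rats was 2.58 in unimpaired and 2.79 in impaired rats for Cdh1, 2.18 and 2.66 for RT1-Db1, 1.44 and 1.88 for Cd74, 0.89 and 0.94 for C4a, and 0.42 and 0.17 for Adrb1. The class II sum had a median of 719.6 in impaired rats, with a range of 181 to 1729 that covered that of unimpaired rats.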

How the data were processed

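The authors had trimmed Illumina read pairs with cutadapt (version 1.8.3), aligned them to rn5 with STAR (version 2.5) and counted them with featureCounts (version 1.4.4), as named in the submitters' processing notes. Ion Proton reads were aligned with TopHat2 and Bowtie2 and counted in the same way. The authors deposited gene counts after division by the size factor of each library, so deposited values are a normalised signal and not counts. All values gave whole reads when divided by their step (100% in every library, within 0.05 of a whole number). The kits named for the Illumina libraries differ between the labels and the study, so it is not known whether reads were counted by strand. The aligner and library type of the WT table are not given in the sources used here.

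Here, limma (version 3.58.1, R 4.3.3) with a variance trend was run on log2(value + 1) for genes whose mean reached 10 over the libraries of a fit. edgeR (version 4.0.16) and DESeq2 (version 1.42.0) were run on recovered reads as alternatives, and the steps were tested on simulated data. Groups came from the labels. The members and the 38 gene lists were chosen with earlier results of these data known. Named genes were all adjusted genes, the 15 retested genes with the largest change in each direction, the retested members of each list or else up to 4 with the highest mean, and the genes shared by age in the study. Young and aged rats share no animal. Subfields of 1 rat are paired by its number, and deviations from group means had a median correlation of 0.192 between DG and CA1 (16 of 22 rats above 0.1) and of 0.058 between DG and CA3 (9 of 22). Each rat gave 1 library per subfield and table, no library pair was identical, and p-values measure the spread between rats. Intervals were not computed for single libraries. Levels of genes were not compared with each other, since values are not per length. Promoters came from RefSeq (GRCr8) and were matched by symbol, and no coordinates of rn5 were used.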

Additional observations from a re-analysis of the deposited data

Results flagged for a closer look

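Among 111 genes examined for a young library far from the others, 18 had 1 young rat whose gap to its nearest neighbour exceeded Dixon's critical share of the range of the 10 young rats. Chance gives this in about 1 in 20 groups, and groups of 12 were not examined. For 12 genes this was the highest value of rat R9881, namely Gpnmb (199.8 normalised reads), Ctsz (238), Cdh23 (153), RT1-CE16 (369), B2m (5015), Mbp (109737), Stmn1 (3227), Enpp2 (3153), Dynlt1 (129.9), Fstl5 (293), Dcx (1056) and Ttr (3440). The choroid plexus and oligodendrocyte sums of this library were also the highest of the young rats, and their part in these values was not tested.

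The highest young value stood apart for Cdh1 in rat R9780 (25.2 normalised reads), for Cd3e in rat R2221 (84.0), for Gpr84 in rat R2175 (86.1), for LOC100910572 in rat R2175 (145.5) and for LOC100361838 in rat R2176 (222). The lowest young value stood apart for C4a in rat R2176 (20.6). Without rat R2176, C4a kept its adjusted call.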

How the results depend on the processing

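The count of 7 adjusted genes moved with the processing more than the count of 87 retested genes. It was 3 with no filter on low values, 4 with edgeR, 28 with DESeq2, 26 with the number series as a covariate, 2 in rats numbered below 9000 and 0 in the others (retested counts of 50 and 44), 3 without deeply sequenced rats, 2 without libraries nearer another subfield, 15 with all 34 DG libraries, 2 in the Ion Proton and 1 in the WT table. Leaving out 1 library gave 3 to 11 adjusted and 73 to 130 retested genes. The adjusted count was 3 without young rat R1922, R2176, R9877 or R9879 or aged rat R9862, 4 without aged rat R2185 and 11 without young rat R9881. Cdh1, C4a and Fcgr2b kept their adjusted call in all 22 of these fits, though C4a lost it without libraries nearer another subfield, and C4a and Fcgr2b without deeply sequenced rats, and 6 of the 7 genes were also adjusted with DESeq2. Retested counts were 49 in the WT table and 72 to 108 under the other alternatives. The causes were not tested, and each series held fewer rats than the main comparison.

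The interaction with CA1 gave 0 adjusted genes by limma with and without the replicate block on the rat and 3 with DESeq2. The block changed no adjusted call. At the unadjusted threshold of 0.05 it moved single genes, such as Pcdhb14 for CA1 (limma interaction p = 0.0548 without and 0.0104 with it). Young and aged rats share no animal, so the main comparison could not be paired. A total of 10 retested genes turned direction in the WT table, with log2 changes of -0.0021 for Tap1, -0.15 for Adrb1, -0.31 for Cebpa, -0.0096 for Arhgap22, -0.11 for Tshz1, -0.0609 for Oplah, 0.0849 for Cdh11, 0.0238 for Ggh, 0.0127 for Ralyl and 0.0006 for LOC100361838. Libraries held 5.70 to 41.5 M reads, so depth limits genes with few reads most.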
